A study of Mus musculus with 24 samples.

Results

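The chemokines and chemokine receptors of 24 BURP tumors were followed across the 8 lines of the collection. BURP tumors are mouse bladder tumor allografts, and "chemokine" is used below for the secreted or membrane-bound ligands. The members were the protein-coding genes named Ccl, Cxcl, Ccr or Cxcr with a number, together with Cx3cl1, Cx3cr1, Xcl1 and Xcr1 and without the neutrophil-recruiting genes Cxcl1, Cxcl2, Cxcl3, Cxcl5 and Cxcr2. This gave 57 of the 53465 gene identifiers in the table, 40 for ligands and 17 for receptors. Every line began as a bladder tumor that N-butyl-N-(4-hydroxybutyl)nitrosamine (BBN) at 0.1% in drinking water, given for up to 36 weeks from 8 weeks of age, had raised in a single C57BL/6NTac mouse. The lines were then passaged under the skin of immune-competent C57BL/6NTac hosts of the same sex, and the labels name no transgene. Whether any tumor came from a treated host is not given in the sources used here. The male Ba/Sq (basal/squamous) lines were BURP-12BaSq, BURP-17BaSq and BURP-18BaSq, and the female Ba/Sq lines were BURP-21BaSq, BURP-24BaSq and BURP-25BaSq. BURP-16SR (stroma-rich) and BURP-19NE (neuroendocrine-like) both came from male mice. Each line was represented by 3 tumors, named below by the codes in their labels, such as C80-M1 or P5. The codes P2, P4, P4.2 and P5 were read as passage numbers. The labels of the other tumors give no passage, so its part in differences between tumors was not tested. Because a line descends from 1 mouse, a p-value measures the spread between tumors, and the subtype of BURP-16SR or BURP-19NE cannot be told apart from its single donor.

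Chemokines are small secreted proteins that guide migrating leukocytes along gradients, and a few, such as Cx3cl1 and Cxcl16, are made as membrane-anchored forms. They act through G protein-coupled receptors, and many ligands share a receptor. Inflammatory chemokines draw monocytes, neutrophils, eosinophils and effector lymphocytes into inflamed tissue and tumors, whereas homeostatic chemokines place B cells, T cells and dendritic cells in lymphoid tissue.

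The values are RSEM estimated counts scaled by TMM-adjusted library size to CPM, and levels of different genes are compared only per kilobase of exon as well (RPKM). Library totals ran from 9295708 to 25370320 counts with a median of 17693147. A level of 3 counts, used here as the detection floor of a library, corresponded to 0.106 to 1.34 CPM. This floor, like every level, covers counting error only. The highest floor belonged to C102-M30 of BURP-25BaSq, in which 61.9% of the counts fell on the single gene CT010467.1. C102-M1 of BURP-25BaSq had a mean correlation of 0.920 with its own line and of 0.977 with BURP-21BaSq over 21545 genes (log2(CPM + 1)), and C165-M30 of BURP-17BaSq correlated at 0.941 with its own line and 0.944 with BURP-24BaSq. Both were kept as labelled. The basal markers Trp63, Krt5, Krt14, Krt17 and Dsg3 were called lower in BURP-19NE and in BURP-16SR than in the Ba/Sq lines, 5 of 5 in each comparison. In these whole tumors, fewer cells of a type and less RNA per cell cannot be told apart.

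Of the 57 members, 50 lay on chromosomes and 7 on unplaced scaffolds, the latter being copies of the Ccl19, Ccl21 and Ccl27 genes. After rounding, 6 members had no count in any tumor, among them the eosinophil chemokine Ccl26, Ccl27b and Ccl21c, and 11 never rose above 10 counts. Over all 8 lines, 43 members had enough counts to be tested. The near-identical Ccl21 copies could not be separated with certainty, and their summed level reached at most 11.4 CPM. The family was strongly clustered in the genome (GRCm38). Chromosome 11 held 14 members and chromosome 9 held 11. One run of 6 ligands (Ccl2, Ccl7, Ccl11, Ccl12, Ccl8 and Ccl1) lay at chr11:82035571-82305690, and another of 5 (Ccl5, Ccl9, Ccl6, Ccl3 and Ccl4) at chr11:83525778-83664683. Ccl22, Cx3cl1 and Ccl17 share chr8:94745590-94812036.

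**Figure D1:**
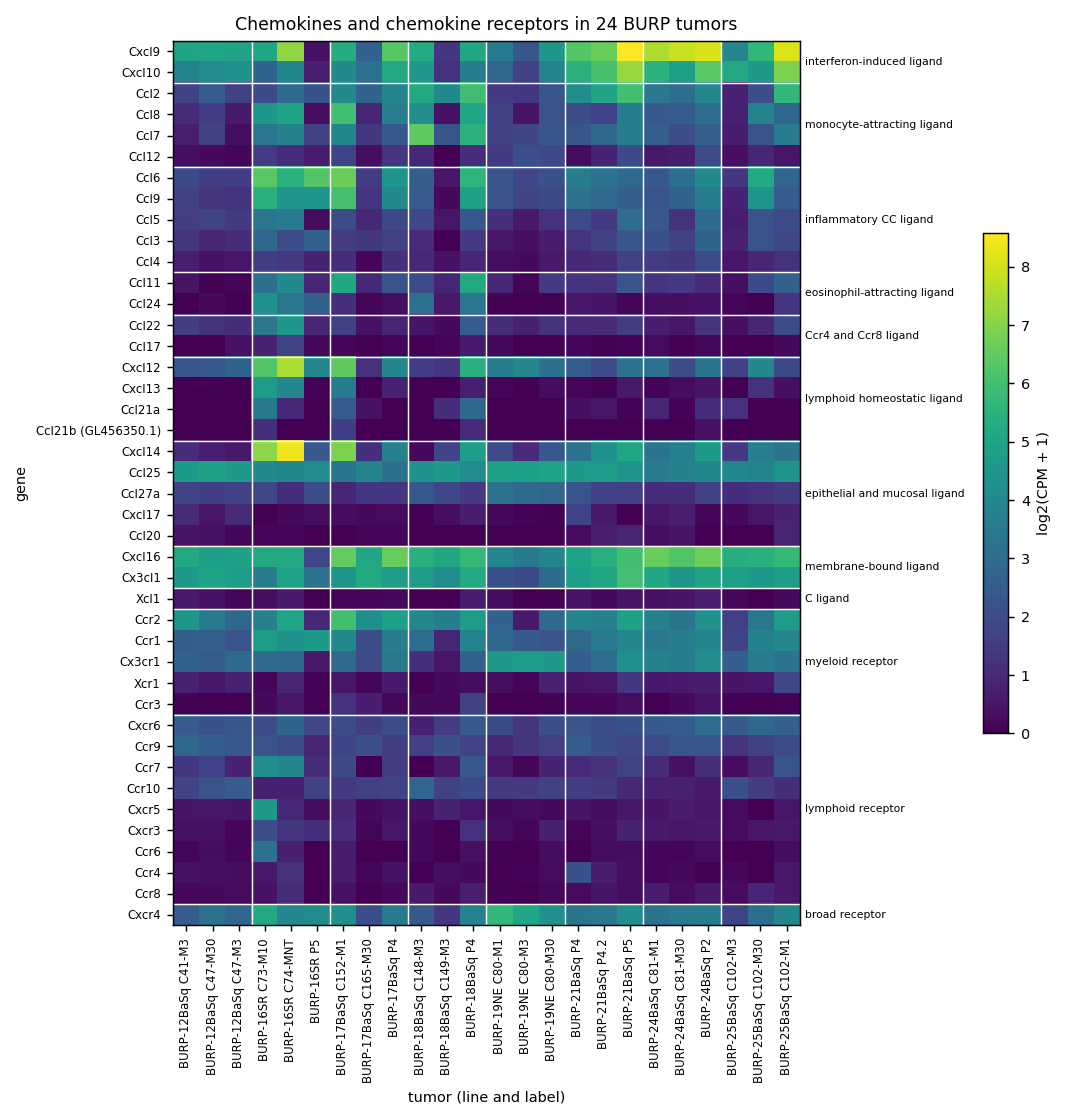
Heat map of log2(CPM + 1) for the tested members reported here (rows, grouped by role) in the 24 tumors (columns, grouped by line). The colour scale gives the level, and the widest contrasts within a line are seen in BURP-16SR, BURP-17BaSq and BURP-18BaSq, where single tumors (P5, C165-M30 and C149-M3) are dark, that is low, across many rows.

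Per length, the interferon-induced ligand Cxcl9, which attracts activated T cells through Cxcr3, had the highest mean level of the family, at 28.9 ± 35.0 RPKM (SD, n = 24), with tumors from 0.116 to 127 RPKM. It was the top ligand in 10 of the 24 tumors, Cxcl16 in 4, Ccl8 in 3 and Cxcl14 in 2. The next mean levels were those of the monocyte chemokine Ccl8 at 19.7 ± 28.3 RPKM, the epithelial and stromal chemokine Cxcl14 at 17.4 ± 39.1 RPKM, the Cxcr6 ligand Cxcl16 at 15.1 ± 9.29 RPKM and the second interferon-induced ligand, Cxcl10, at 14.5 ± 16.8 RPKM. They were followed by Ccl2 at 13.9 ± 16.6 RPKM, Ccl7 at 12.5 ± 23.3 RPKM and Ccl6 at 11.5 ± 16.1 RPKM, all of which attract monocytes or other myeloid cells. The SD exceeded the mean for 7 of these 8 ligands, Cxcl16 being the exception, so that neighbours in this order did not differ beyond their spread. Among receptors, Cxcr4, the receptor of Cxcl12, had the highest mean level at 7.57 ± 6.34 RPKM and was the top receptor in 18 of 24 tumors, with Ccr2 on top in 3. Cx3cl1 completed the 10 highest members at 6.33 ± 3.32 RPKM. This last place depended on the length used. Per length of the longest transcript, the ligand Ccl25 came before Cx3cl1, at 7.52 against 7.50 RPKM. Over the union of exons Ccl25 was at 2.57 RPKM. Its value was not whole in 23 of 24 tumors and its exons overlap Elavl1 on the other strand, so its count is uncertain. Summed over ligands, the level per length ran from 30.6 RPKM in C80-M3 of BURP-19NE to 460 RPKM in C74-MNT of BURP-16SR, and summed over receptors from 6.92 RPKM in C149-M3 of BURP-18BaSq to 60.6 RPKM in C73-M10 of BURP-16SR.

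Among the 8 lines, 30 of 43 tested members differed (69.8%, against 65.7% of all 21383 genes tested), where called means an adjusted p under 0.05 from edgeR's quasi-likelihood test with Benjamini-Hochberg adjustment over all genes and a log2 range of fitted line means above 1. The members' share was thus near the background. Their line means spread more widely, with a median log2 range of 3.69 against 1.80 for all genes. This range, here and among the 6 Ba/Sq lines, takes no account of counting error, which is large for members near 0 counts in a line. The part of low counts in the wider range was not tested. By role, 20 of 27 tested ligands and 10 of 16 tested receptors were called. Cxcl13, the B cell chemokine read by Cxcr5, averaged 13.4 ± 12.8 CPM in BURP-16SR and 0.0142 ± 0.0245 CPM in BURP-12BaSq, with the SD taken over the 3 tumors of a line here and below (adjusted p = 0.000836). Ccl24, the eosinophil chemokine eotaxin-2, was at 11.3 ± 7.08 CPM in BURP-16SR and 6.04 ± 4.81 CPM in BURP-18BaSq, and at or under 0.545 CPM on average in the other lines (adjusted p = 2.0e-05). Cxcl14 ranged from 0.760 ± 0.322 CPM in BURP-12BaSq to 155 ± 162 CPM in BURP-16SR (adjusted p = 0.00278). Ccl21a, a Ccr7 ligand, was at 0 in all 3 tumors of BURP-12BaSq and of BURP-19NE and at 3.67 ± 5.58 CPM in BURP-16SR, of which C73-M10 alone gave 10.1 CPM.

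BURP-19NE was compared with the 18 Ba/Sq tumors to show how the neuroendocrine-like line departs from the common subtype. Its membrane-anchored ligands Cx3cl1 and Cxcl16 were lower than in any Ba/Sq tumor, whereas the receptors Cxcr4 and Cx3cr1 and the skin and epithelial chemokine Ccl27a were higher. Here 11 of 40 tested members were called, 3 higher and 8 lower, which is 27.5% against 24.3% of all 20995 genes tested (9.33% called higher and 15.0% called lower). The median log2 fold change was -1.89 over the tested members and -0.14 over all genes, and 35 of the 40 members had a fold change below 0. At an unadjusted p under 0.05 there were 20 members. The share of all genes at that threshold was not computed, here or in the later comparisons. Such counts therefore do not set the members apart from other genes. Groups did not overlap for 5 of the 40 members (against 18.2% of all genes), namely the 5 just named. The share of members called was near that of all genes.

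Cx3cl1, or fractalkine, binds Cx3cr1 on monocytes, macrophages and NK cells. Its level was 3.49, 2.79 and 7.17 CPM in C80-M1, C80-M3 and C80-M30 of BURP-19NE, and 16.5 CPM (lowest), 26.8 CPM (median) and 64.1 CPM (highest) in the Ba/Sq tumors. Each BURP-19NE tumor lay below the lowest Ba/Sq tumor. The log2 fold change was -2.69 ± 0.37 (SE), 6.47-fold lower, with an adjusted p of 1.2e-05 by edgeR's quasi-likelihood test, as for all adjusted p-values below unless another tool is named. Cxcl16, the ligand of Cxcr6, was at 14.6, 10.2 and 14.3 CPM against a range of 27.4 to 101.96 CPM and a median of 42.8 CPM in Ba/Sq tumors. Its log2 fold change was -2.05 ± 0.45 (adjusted p = 0.00145). An exon of Cxcl16 overlaps Zmynd15 on the other strand and its value was not whole in 24 of 24 tumors. The strand setting of the counting is not given in the sources used here, so reads of such a pair cannot be told apart. The same holds for Ccl27a and Il11ra1 and for Cx3cr1 and Gm33858.

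Among the receptors, 2 were called higher and 3 lower. Cxcr4, which most leukocytes and many tumor cells carry, was at 50.6, 32.2 and 19.2 CPM in BURP-19NE and between 1.54 and 18.4 CPM, with a median of 8.62 CPM, in Ba/Sq tumors. The groups did not overlap, though C80-M30 lay close to the highest Ba/Sq tumor, C152-M1. The log2 fold change of Cxcr4 was 1.94 ± 0.45 (adjusted p = 0.00231), while its ligand Cxcl12 did not pass the test, with a log2 fold change of -0.12 ± 1.02 (adjusted p = 0.940). Cx3cr1, the fractalkine receptor, was nearly equal in the 3 BURP-19NE tumors at 23.2, 25.5 and 24.1 CPM, above the Ba/Sq range of 0.429 to 18.8 CPM with its median of 6.74 CPM. Its log2 fold change was 1.64 ± 0.53 (adjusted p = 0.0216). Thus the ligand of this pair was lower and its receptor higher in the same 3 tumors. Ccl27a was at 8.12, 6.64 and 5.90 CPM against 0.881 to 4.12 CPM and a median of 1.87 CPM, a log2 fold change of 1.82 ± 0.31 (adjusted p = 0.000115). Its receptor Ccr10 did not pass the test, with a log2 fold change of -0.21 ± 0.53 (adjusted p = 0.785).

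**Figure D2:**
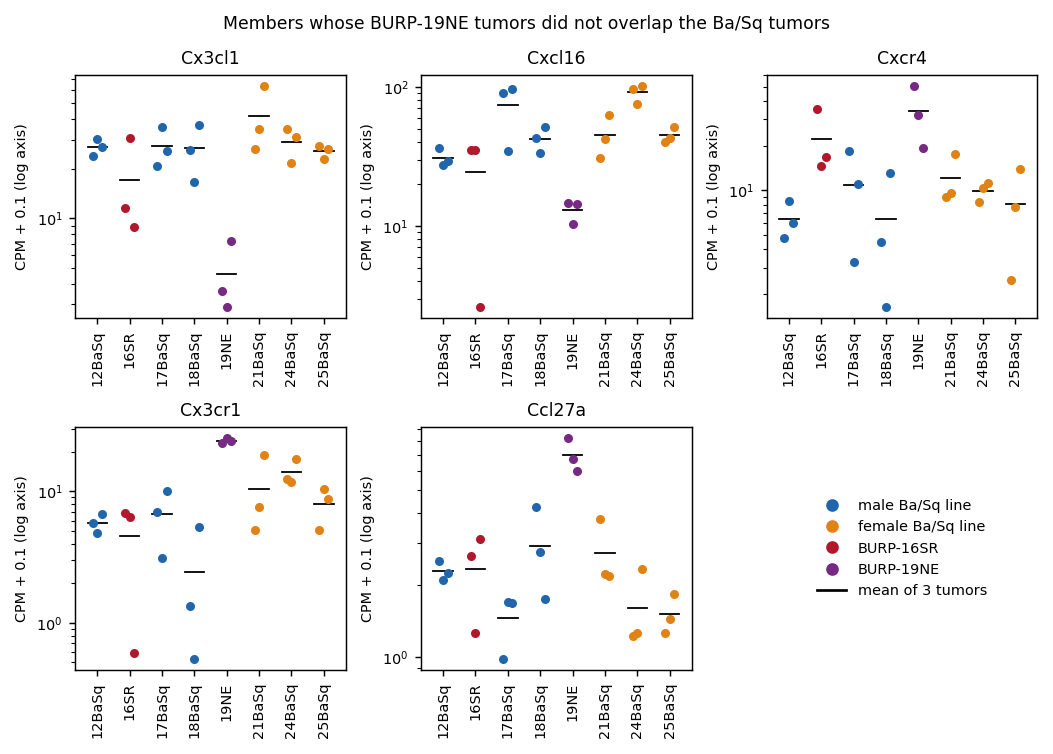
Level of Cx3cl1, Cxcl16, Cxcr4, Cx3cr1 and Ccl27a by line, in CPM + 0.1 on a log axis, with each tumor as a point and the mean of 3 as a bar (blue, male Ba/Sq; orange, female Ba/Sq; red, BURP-16SR; purple, BURP-19NE). The 3 purple points sit below all Ba/Sq points for Cx3cl1 and Cxcl16 and above them for the other 3 genes.

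The remaining 6 calls in BURP-19NE were lower with ranges that overlapped the Ba/Sq tumors. Ccl2, the main monocyte chemokine, was at 1.77, 1.63 and 3.86 CPM against 0.712 to 62.7 CPM and a median of 14.4 CPM (log2 fold change -3.03 ± 1.17, adjusted p = 0.0495). Its receptor Ccr2, which marks inflammatory monocytes, was at 5.51, 0.527 and 6.81 CPM against 2.09 to 63.2 CPM and a median of 14.4 CPM (-2.08 ± 0.76 on the log2 scale, adjusted p = 0.0394). Ccl3, a ligand of Ccr1, was at 0.463, 0.264 and 0.590 CPM with a Ba/Sq median of 1.81 CPM (-2.20 ± 0.80, adjusted p = 0.0381). All 3 of these members act in monocyte and macrophage traffic, but not every member that does was lower. The monocyte-attracting ligand Ccl12 was at 1.73, 3.27 and 2.68 CPM against at most 2.98 CPM in Ba/Sq tumors and was not called. Cx3cr1, also a receptor of monocytes and macrophages, was called higher. Ccr9, the gut-homing receptor, was at 0.968, 1.48 and 2.09 CPM with a Ba/Sq median of 3.09 CPM (-1.09 ± 0.37 on the log2 scale, adjusted p = 0.0284). Its exons overlap Gm17200 on the same strand and Slc6a20a and AC165425.1 on the other, and its value was not whole in 17 tumors, so its count is uncertain. Ccr8, found on regulatory T cells, was at 0.0421, 0 and 0.136 CPM with a Ba/Sq median of 0.230 CPM (adjusted p = 0.0490). The BURP-19NE values lay at or under the level of 3 counts, and no Ba/Sq tumor had more than 13 counts. Ccl20, the ligand of Ccr6, had no count in the 3 BURP-19NE tumors and at most 0.850 CPM in Ba/Sq tumors. That is at least 1.65-fold lower at 3 counts per library (adjusted p = 0.04995). Since it passed the filter on low counts only through Ba/Sq tumors, Ccl20 could only be called lower. Its call was lost in 16 of 27 alternatives.

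Several of these calls depended on single tumors. With any 1 BURP-19NE tumor left out, only Cxcl16, Cx3cl1, Cxcr4 and Ccl27a of the 11 kept their call in all 3 fits, from 4 to 6 of the 11 being called in each, and Cx3cr1 reached adjusted p-values from 0.0680 to 0.0840. Among other lists, 0 of 8 macrophage markers were called by edgeR (0 at an unadjusted p under 0.05), and their summed level of 180 to 251 CPM in BURP-19NE lay within the Ba/Sq range of 21.02 to 788 CPM with a median of 197 CPM. Of 3 monocyte markers 1 was called lower (Chil3), and the 3 summed to 186 to 208 CPM against 4.63 to 243 CPM. Of 4 neutrophil markers tested 3 were called lower (Csf3r, S100a8 and S100a9), with a sum of 1.79 to 2.90 CPM against 1.69 to 96.7 CPM. Of the 35 other pathway genes tested, such as signalling partners, atypical receptors and upstream regulators, 7 fell and 0 rose, among them the interferon regulator Irf1 (-1.24 ± 0.34 on the log2 scale). All 5 neutrophil-recruiting genes left out by the rule were called lower too, Cxcl1 with a log2 fold change of -4.74 ± 0.76 (adjusted p = 6.6e-05). Skeletal muscle markers were called higher, 4 of 4, at 480 CPM summed in C80-M1 but 1.84 and 3.63 CPM in the other two. Epithelial markers were called lower, 3 of 4. The part of these cell types in the chemokine values was not tested.

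In BURP-16SR, the stroma-rich line, Cxcr5, Ccr6, Ccr7, Cxcr3 and Cxcr4 and the ligands Cxcl12, Cxcl13, Cxcl14, Ccl17, Ccl22 and Ccl24 were among the members higher than in the Ba/Sq tumors, but the tumors that carried them were not the same for each gene. Of 43 tested members 12 were called, all higher, which is 27.9% against 19.2% of all 21028 genes (10.5% higher and 8.62% lower). The median log2 fold change was 0.64 over the members and -0.03 over all genes, and 15 members had an unadjusted p under 0.05. Groups did not overlap for 1 member, Ccr1 (against 11.5% of all genes). The comparison has the 18 Ba/Sq tumors in common with that of BURP-19NE. In both, a male line is set against male and female Ba/Sq lines. By role, 4 of 9 lymphoid receptors, 2 of 4 tested lymphoid homeostatic ligands and 2 of 2 tested ligands of Ccr4 and Ccr8 were called. With BURP-19NE against the same Ba/Sq tumors, 8, 3 and 1 members of these roles had enough counts to be tested. The added members, such as Ccl17, passed the filter on low counts only through BURP-16SR. Their direction was largely fixed beforehand, which limits these counts and that of the 12 calls. Of the 5 inflammatory CC ligands 0 were called by edgeR (2 at an unadjusted p under 0.05), and of the 2 interferon-induced ligands 0 (1 at an unadjusted p under 0.05), although DESeq2 called Cxcl10 lower.

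The B cell follicle members were carried mainly by C73-M10. Cxcr5, which brings B cells and follicular helper T cells to Cxcl13, was at 23.3, 0.929 and 0.210 CPM in C73-M10, C74-MNT and P5, and between 0 and 0.881 CPM with a median of 0.391 CPM in Ba/Sq tumors. Ccr6, found on B cells and Th17 cells, was at 8.48, 0.697 and 0 CPM against at most 0.613 CPM. Only C73-M10 stood well above the Ba/Sq tumors for both receptors, and exons of Cxcr5 overlap Bcl9l on the other strand. The log2 fold changes were 4.37 ± 0.57 for Cxcr5 (adjusted p = 8.2e-06) and 4.37 ± 0.82 for Ccr6 (adjusted p = 0.000448). Without C73-M10 they were 0.52 (adjusted p = 0.608) and 1.24 (adjusted p = 0.507). Cxcl13 was at 25.7, 14.6 and 0.0699 CPM against at most 10.7 CPM and a median of 0.0714 CPM (log2 fold change 4.07 ± 1.26, adjusted p = 0.0215). It was therefore high in both C73-M10 and C74-MNT but not in P5. The summed level of 8 B cell markers was also highest in C73-M10, at 383, 14.2 and 3.71 CPM in the 3 tumors against 1.51 to 15.0 CPM in Ba/Sq tumors. All 8 were called higher. Only 5 of them had enough counts to be tested in BURP-19NE against the same Ba/Sq tumors. The others passed the filter on low counts only through BURP-16SR, so their direction was largely fixed beforehand. Cr2, a marker of B cells and follicular dendritic cells, reached 18.6 CPM in C73-M10. Madcam1 and Chst4, which mark specialised vessels of lymphoid tissue, stayed at or under 0.310 and 0.0774 CPM, while Glycam1, of the same vessels, reached 1.935 CPM in C74-MNT and 0.339 CPM in C73-M10 against at most 0.383 CPM in Ba/Sq tumors. The part of B cells in these values was not tested.

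Ccr7 and Ccl22, both prominent in mature dendritic cells, were high in 2 of the 3 tumors. Ccr7, which leads dendritic cells and naive T cells to lymph nodes, was at 18.1, 14.1 and 1.19 CPM against 0 to 4.06 CPM and a median of 1.17 CPM (log2 fold change 2.99 ± 0.72, adjusted p = 0.00445). Ccl22, a dendritic cell and macrophage product that attracts Ccr4-bearing cells, was at 9.66, 22.5 and 0.909 CPM against 0.172 to 4.65 CPM and a median of 1.09 CPM (3.13 ± 0.62, adjusted p = 0.000751). For both genes P5 lay within the Ba/Sq range. Of 5 dendritic cell markers 2 were called higher, Flt3 at 4.83, 6.502 and 0 CPM in C73-M10, C74-MNT and P5 and Zbtb46 at 15.2 to 18.8 CPM. All 5 summed to 41.4, 55.2 and 19.2 CPM, within the Ba/Sq range of 8.82 to 61.4 CPM, and the part of dendritic cells was not tested. Ccl17, the other ligand of Ccr4, was low, at 0.763, 2.32 and 0.1399 CPM with a Ba/Sq maximum of 0.534 CPM (3.30 ± 0.80, adjusted p = 0.00466). Cxcr3, the receptor of Cxcl9 and Cxcl10 on effector T cells, was at 3.14, 1.55 and 1.26 CPM against at most 1.34 CPM (2.25 ± 0.61, adjusted p = 0.00976). Its ligands did not pass the test, since Cxcl9 had a log2 fold change of -0.77 ± 1.20 (adjusted p = 0.682) and Cxcl10 of -2.50 ± 1.06 (adjusted p = 0.0874).

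The upstream sequences of the 3 neighbours on chromosome 8 are shown because Ccl22 and Ccl17 were called in BURP-16SR and Cx3cl1, between them, in BURP-19NE. They are the 250 bases before the gene start from RefSeq on GRCm38.p6, at chr8:94745434-94745683, chr8:94771930-94772179 and chr8:94810203-94810452, all on the plus strand. The RefSeq start can lie inside the longer span of the GENCODE gene, as it does for Ccl22 and Cx3cl1. Capitals mark the single match to TTCNNNGAA, the form of gamma-activated sites, at -99 to -91 of Ccl17.
Ccl22: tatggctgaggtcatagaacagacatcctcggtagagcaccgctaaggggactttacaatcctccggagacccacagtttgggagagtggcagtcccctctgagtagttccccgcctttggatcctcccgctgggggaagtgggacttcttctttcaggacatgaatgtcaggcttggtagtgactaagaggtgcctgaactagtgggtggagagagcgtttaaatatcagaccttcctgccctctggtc
Cx3cl1: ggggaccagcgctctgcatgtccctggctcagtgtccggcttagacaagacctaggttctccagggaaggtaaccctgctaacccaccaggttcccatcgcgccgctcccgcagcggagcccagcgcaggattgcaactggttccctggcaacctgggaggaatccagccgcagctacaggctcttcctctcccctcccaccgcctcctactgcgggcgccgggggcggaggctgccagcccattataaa
Ccl17: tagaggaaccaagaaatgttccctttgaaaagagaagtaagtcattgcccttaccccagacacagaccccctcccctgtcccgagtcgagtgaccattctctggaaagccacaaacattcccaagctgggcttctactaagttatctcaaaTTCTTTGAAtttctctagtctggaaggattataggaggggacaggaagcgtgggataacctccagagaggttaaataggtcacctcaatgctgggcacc
Promoters were found for 37 of 52 member symbols. Searched on both strands, TTCNNNGAA occurred in 7.02% of all 32841 promoters of this length and in those of 3 members, Ccl17, Ccr6 and Cxcl14. A match is a description of letters and not a binding site.

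The stromal chemokines peaked in C74-MNT. Cxcl12, made by fibroblasts and endothelium and read by Cxcr4, was at 74.7, 186 and 15.0 CPM in C73-M10, C74-MNT and P5 against 1.34 to 88.4 CPM and a median of 4.40 CPM. Its log2 fold change was 2.997 ± 0.86 (adjusted p = 0.0139). Cxcl14 was at 136, 326 and 4.27 CPM against 0.137 to 117 CPM and a median of 8.87 CPM (log2 fold change 3.35 ± 1.02, adjusted p = 0.0195). For both genes the order of the 3 tumors was that of the fibroblast markers, whose summed level was 7467, 20027 and 582 CPM, with a Ba/Sq range of 207 to 9796 CPM and 4 of 7 markers called higher. Endothelial markers, 3 of 5 called higher, had another order, at 230, 337 and 333 CPM summed against 27.8 to 389.9 CPM. The part of either cell type in these values was not tested. Cxcr4, the receptor of Cxcl12, was at 35.4, 14.6 and 16.6 CPM against 1.54 to 18.4 CPM (1.39 ± 0.47 on the log2 scale, adjusted p = 0.0330), so that only C73-M10 exceeded every Ba/Sq tumor.

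Ccr1 was high in P5 as well. This receptor of neutrophils, monocytes and macrophages for Ccl3, Ccl5, Ccl6 and Ccl9 was at 27.3, 19.9 and 24.6 CPM, above all Ba/Sq tumors, which ran from 0.858 to 15.9 CPM with a median of 10.2 CPM. Its log2 fold change was 1.47 ± 0.49 (adjusted p = 0.0304). Ccl24 was at 19.2, 9.44 and 5.39 CPM against 0 to 9.35 CPM and a median of 0.260 CPM (3.22 ± 1.08 on the log2 scale, adjusted p = 0.0327). P5 lay within the Ba/Sq range of Ccl24, whose upper end came from C148-M3 and P4 of BURP-18BaSq.

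**Figure D3:**
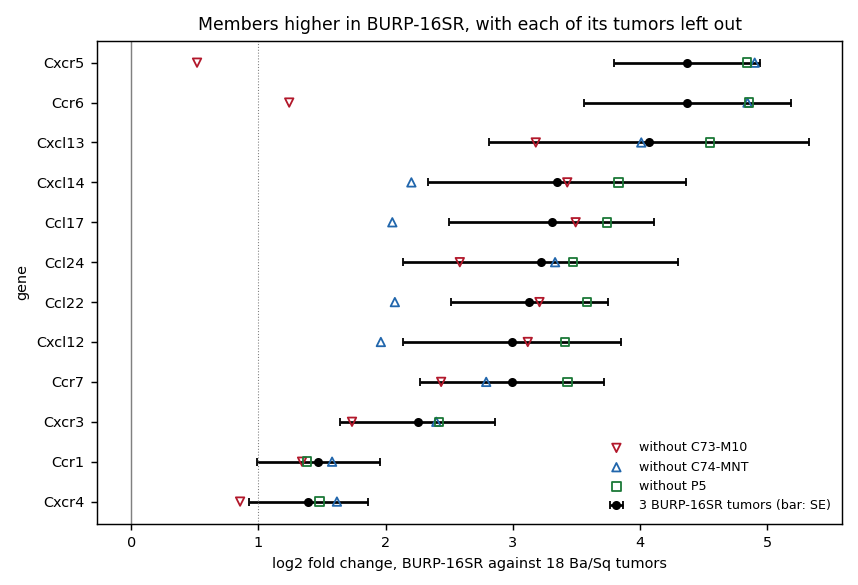
Log2 fold change ± SE of the 12 called members in BURP-16SR against the Ba/Sq lines (x axis) with all tumors and with each BURP-16SR tumor left out. Cxcr5 falls from 4.37 to 0.52 and Ccr6 from 4.37 to 1.24 without C73-M10, whereas the log2 fold change of Ccr1 lies between 1.34 and 1.58 in all 3 fits.

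No member kept its call in all 3 fits that left out a BURP-16SR tumor. Without C73-M10, 3 of the 12 were still called (Ccl22, Ccl17 and Cxcl12), without C74-MNT 5 (Ccr7, Ccr6, Cxcr4, Cxcr5 and Cxcr3) and without P5 9. The adjusted p of Ccr1 then lay between 0.0634 and 0.135. Pan-leukocyte markers summed to 363, 238 and 30.6 CPM in C73-M10, C74-MNT and P5 (0 of 4 called by edgeR, 2 at an unadjusted p under 0.05), and macrophage markers to 613, 458 and 63.3 CPM (0 of 8 called by edgeR, 0 at an unadjusted p under 0.05). Of the 35 other pathway genes tested, 7 rose and 1 fell. The risen genes included Dock2 (1.74 ± 0.58 on the log2 scale), which drives leukocyte migration downstream of the receptors, the lymphotoxin subunit Ltb (2.67 ± 0.62) and the Cxcl12 scavenger Ackr3 (1.48 ± 0.37), and the platelet chemokine gene Ppbp fell (-4.93 ± 1.299).

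Compared directly, BURP-16SR had higher levels of Ccr1, of its ligands Ccl3, Ccl6 and Ccl9 and of Ccl24 than BURP-19NE. Of 30 tested members 13 were called, 12 higher and 1 lower in BURP-16SR, which is 43.3% against 23.6% of all 17556 genes (14.8% higher and 8.86% lower). The median log2 fold change was 2.19 over the members and 0.06 over all genes, 17 members had an unadjusted p under 0.05, and the groups of 3 did not overlap for 14 of 30 (against 51.4% of all genes). Of the 5 inflammatory CC ligands 4 were called, Ccl5, another Ccr1 ligand, being the exception. Ccl6 was at 83.4, 44.1 and 77.1 CPM in C73-M10, C74-MNT and P5 of BURP-16SR and at 3.96, 2.58 and 3.40 CPM in C80-M1, C80-M3 and C80-M30 of BURP-19NE. That is a log2 fold change of 4.45 ± 0.32 (adjusted p = 0.000659), the groups lying far apart. Ccl9 was at 42.6, 21.1 and 21.9 CPM against 3.83, 2.48 and 2.77 CPM (3.33 ± 0.38, adjusted p = 0.00187). Ccl3 was at 6.10, 3.10 and 5.53 CPM against 0.463, 0.264 and 0.590 CPM (3.54 ± 0.44, adjusted p = 0.00244). Ccr1, which reads all 3 ligands, was at 6.19, 4.37 and 3.86 CPM in BURP-19NE, 2.41 ± 0.25 lower on the log2 scale (adjusted p = 0.00153). Ccl24 had 425 counts in the 3 BURP-16SR tumors and 2 in the 3 BURP-19NE tumors, a ratio of levels of 353 with a 95% exact interval of 97.1 to 2922 for counting error. These 5 members stayed called in all 6 fits that left out 1 tumor. Cxcl14 (5.94 ± 1.48), Ccr7 (4.63 ± 1.13) and Ccl22 (3.46 ± 1.04) also had large log2 fold changes but did not stay called in each of these fits. The 1 member called lower in BURP-16SR was Ccl27a, by -1.53 ± 0.38 on the log2 scale (adjusted p = 0.0231). The other pathway genes gave 5 higher and 0 lower of 32 tested.

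BURP-24BaSq and BURP-16SR are the lines that the study grew under cisplatin, and the comparison places their chemokines side by side. BURP-24BaSq is female and BURP-16SR male, so sex, subtype and donor cannot be told apart here. Of 31 tested members 9 were called, all lower in BURP-24BaSq (29.0% of members and 29.0% of all 18283 genes, with 13.2% called higher and 15.8% lower among all genes). The median log2 fold change was -0.75 over the members and -0.05 over all genes, 13 members had an unadjusted p under 0.05, and the groups did not overlap for 13 of the 31 members (against 53.9% of all genes). Ccl24 was at 0.255, 0.265 and 0.331 CPM in C81-M1, C81-M30 and P2 of BURP-24BaSq, against at least 5.39 CPM in BURP-16SR (-5.34 ± 0.60 on the log2 scale, adjusted p = 0.000895). Ccl6 was at 4.18, 7.53 and 16.2 CPM against at least 44.1 CPM (-2.92 ± 0.53, adjusted p = 0.00584). These 2 ligands were called in all 6 fits that left out 1 tumor. Cxcl12 (-3.85 ± 0.93), Ccl22 (-3.76 ± 1.11), Ccr7 (-3.72 ± 1.01) and Ccl9 (-2.14 ± 0.50) were also called, but not in each of these fits. The interferon-induced ligands pointed the other way without passing the test, Cxcl10 with a log2 fold change of 2.84 ± 0.95 (adjusted p = 0.0534). Under 7 of 11 alternatives Cxcl10 was called, with log2 fold changes from 2.32 to 3.97 over the alternatives. Of 34 other pathway genes 5 were higher and 5 lower in BURP-24BaSq.

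Ccl6 and Ccl9 lie next to each other on chromosome 11, and their levels over the tumors ran in parallel. In the Ba/Sq lines Ccl6 ranged from 0.429 to 99.5 CPM and Ccl9 from 0.172 to 65.4 CPM, with both extremes in the same tumors, C149-M3 of BURP-18BaSq and C152-M1 of BURP-17BaSq. Within BURP-17BaSq, Ccl6 was at 99.5 CPM in C152-M1, 1.85 CPM in C165-M30 and 21.8 CPM in P4. This spread was noticed after the values were seen. Ccl6 and Ccl9 were not called in BURP-16SR against the Ba/Sq lines, with log2 fold changes of 2.21 ± 0.91 (adjusted p = 0.0786) and 1.53 ± 0.93 (adjusted p = 0.238). In P5 of BURP-16SR, Ccl6, Ccl9 and Ccr1 lay between or close to the other BURP-16SR tumors and Ccl24 was the lowest of the 3 at 5.39 CPM, while the macrophage sum was 63.3 CPM against 458 and 613 CPM and the pan-leukocyte sum 30.6 CPM against 238 and 363 CPM. The upstream sequences of Ccl6 and Ccl9 are shown because the pair moved alike, from RefSeq on GRCm38.p6 at chr11:83593088-83593337 and chr11:83578637-83578886, both on the minus strand and printed 5′ to 3′ along the gene. Capitals mark a match to the NF-κB consensus at -35 to -26 of Ccl9.
Ccl6: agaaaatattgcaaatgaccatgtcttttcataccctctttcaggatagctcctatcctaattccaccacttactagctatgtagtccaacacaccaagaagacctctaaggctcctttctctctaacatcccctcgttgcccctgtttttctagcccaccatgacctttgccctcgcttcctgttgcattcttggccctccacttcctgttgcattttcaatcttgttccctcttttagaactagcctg
Ccl9: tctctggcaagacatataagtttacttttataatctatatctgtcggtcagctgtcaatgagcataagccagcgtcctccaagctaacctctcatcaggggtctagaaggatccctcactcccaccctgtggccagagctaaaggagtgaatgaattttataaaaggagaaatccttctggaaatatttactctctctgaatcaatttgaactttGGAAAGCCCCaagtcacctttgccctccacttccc
The NF-κB consensus, searched on both strands, occurred in 3.90% of all promoters and in those of 5 members, Ccl20, Ccl9, Ccr3, Ccr6 and Cxcl10.

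**Figure D4:**
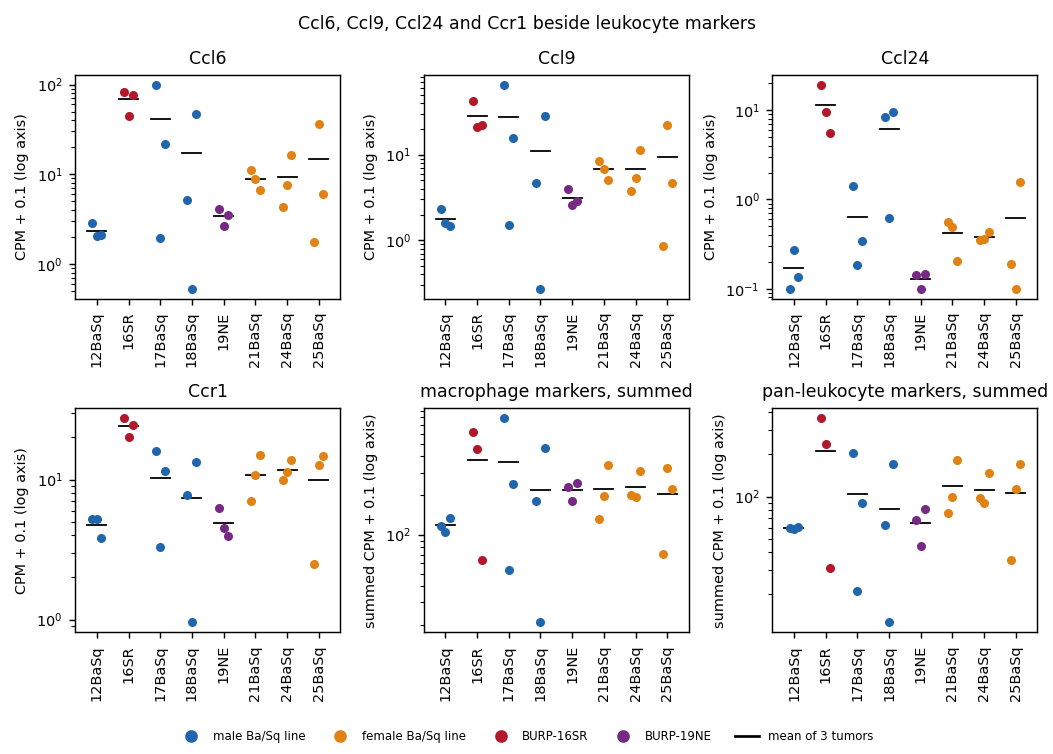
Level of Ccl6, Ccl9, Ccl24 and Ccr1 and the summed levels of macrophage and pan-leukocyte markers by line, in CPM on a log axis, with each tumor as a point and the mean of 3 as a bar. In BURP-16SR (red) the 3 tumors lie close together for Ccl6, from 44.1 to 83.4 CPM, and far apart for the macrophage sum, from 63.3 to 613 CPM.

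Male and female Ba/Sq lines, 3 of each, were compared to see whether chemokines differ with sex. The only members called were Cxcl9 and Cxcl10, both lower in the male lines, 2 of 27 tested (7.41%, against 2.31% of all 17922 genes, 1.09% higher and 1.22% lower). The median log2 fold change was 0.10 over the members and 0.04 over all genes, and 7 members had an unadjusted p under 0.05. Groups overlapped for all 27 members (0.48% of all genes did not overlap). Cxcl9 was at 31.2, 33.3 and 30.003 CPM in C41-M3, C47-M30 and C47-M3 of BURP-12BaSq, at 38.7, 5.54 and 78.4 CPM in C152-M1, C165-M30 and P4 of BURP-17BaSq and at 37.9, 1.54 and 33.5 CPM in C148-M3, C149-M3 and P4 of BURP-18BaSq. In the female lines it was at 77.2, 97.0 and 384 CPM in P4, P4.2 and P5 of BURP-21BaSq, at 185, 234 and 269 CPM in C81-M1, C81-M30 and P2 of BURP-24BaSq and at 14.6, 50.6 and 277 CPM in C102-M3, C102-M30 and C102-M1 of BURP-25BaSq. The female lines were higher by line mean, but C102-M3 and C102-M30 lay among the male tumors. Without C102-M1, the tumor that correlated better with BURP-21BaSq, the mean of BURP-25BaSq fell from 114 to 32.6 CPM, below the 40.9 CPM of male BURP-17BaSq. The log2 fold change of male against female was -2.45 ± 0.60 (adjusted p = 0.0241).

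Cxcl10 was at 16.3 ± 9.65 CPM (SD, n = 9, lowest 1.37, median 15.8 and highest 35.5) in the male tumors and 66.3 ± 44.0 CPM (lowest 23.3, median 45.0 and highest 151.9) in the female tumors, a log2 fold change of -2.02 ± 0.45 (adjusted p = 0.0166). The line means were 17.02, 19.8 and 11.97 CPM in the male lines and 87.7, 52.1 and 59.0 CPM in the female lines. Without C102-M1 the Cxcl10 mean of BURP-25BaSq was 29.4 CPM, still above the male line means. Tumors of a line are not independent samples of a sex. With the counts summed to 1 value per line, the adjusted p was 0.227 for Cxcl9 and 0.264 for Cxcl10 (edgeR), and with line as a random effect in limma-voom it was 0.600 and 0.438. Without C102-M1 and C102-M30 the adjusted p-values were 0.0428 and 0.0320. Of the interferon response genes, Gbp2, a guanylate-binding protein gene, was called lower in the male lines (-1.41 ± 0.35 on the log2 scale), and the 10 genes of that list summed to 141 to 1270 CPM in male and 660 to 1546 CPM in female tumors. The part of interferon in the Cxcl9 and Cxcl10 values was not tested. Exons of Cxcl10 overlap Art3 on the other strand.

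The upstream sequences of Cxcl9 and Cxcl10 are shown because these were the members called between the sexes. They lie at chr5:92328080-92328329 and chr5:92348890-92349139 on the minus strand (RefSeq, GRCm38.p6). Capitals mark in Cxcl10 a match to TTTCNNTTTC, the core of interferon-stimulated response elements, at -213 to -204, read on the other strand, and 2 matches to the NF-κB consensus at -159 to -150 and -103 to -94.
Cxcl9: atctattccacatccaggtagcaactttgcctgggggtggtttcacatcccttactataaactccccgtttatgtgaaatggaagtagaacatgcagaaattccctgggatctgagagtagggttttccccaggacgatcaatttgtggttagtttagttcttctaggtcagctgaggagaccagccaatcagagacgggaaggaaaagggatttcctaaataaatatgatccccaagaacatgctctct
Cxcl10: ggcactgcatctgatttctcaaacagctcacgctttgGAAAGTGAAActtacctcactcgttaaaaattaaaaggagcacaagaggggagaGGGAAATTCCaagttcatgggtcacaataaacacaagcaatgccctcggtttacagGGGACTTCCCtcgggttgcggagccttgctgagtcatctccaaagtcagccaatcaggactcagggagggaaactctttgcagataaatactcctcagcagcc
None of these letters overlapped between motifs. TTTCNNTTTC was found on either strand in 2.98% of all promoters and in those of 3 members, Ccl19, Cxcl10 and Cxcl14, and not in the window of Cxcl9.

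**Figure D5:**
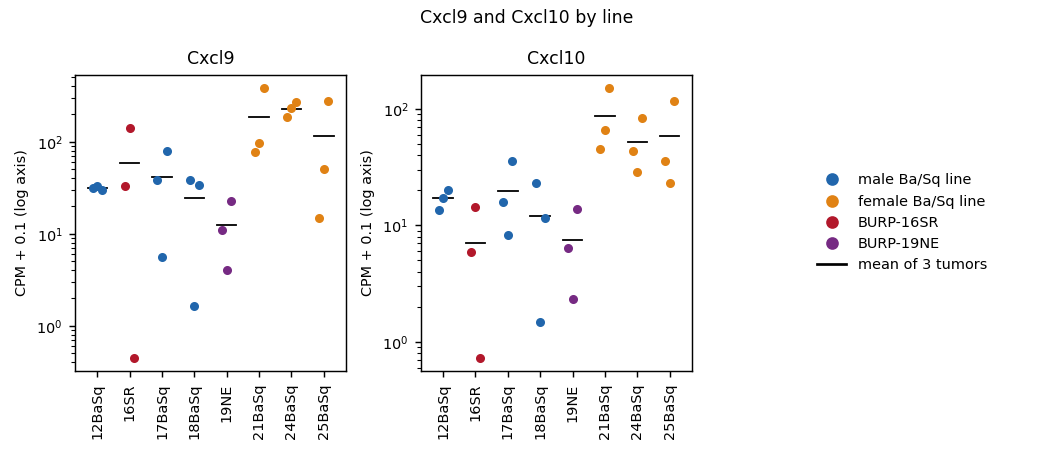
Level of Cxcl9 and Cxcl10 by line, in CPM on a log axis, with each tumor as a point and the mean of 3 as a bar. Female Ba/Sq lines (orange) have the higher line means, but the 3 BURP-25BaSq tumors run from 14.6 to 277 CPM of Cxcl9, and without C102-M1 the line mean is 32.6 CPM.

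Within the 6 Ba/Sq lines, 10 of 40 tested members differed between lines (25%, against 39.4% of all 20523 genes), with a median log2 range of line means of 2.28 against 1.29 for all genes and 15 members at an unadjusted p under 0.05. Ccl25, the thymus and gut ligand of Ccr9, was at 24.3, 29.0 and 24.1 CPM in BURP-12BaSq and at 9.20, 13.8 and 8.09 CPM in BURP-17BaSq (adjusted p = 0.00168 over the 6 lines). The tumors of these lines did not overlap, although Ccl25 shares exon bases with Elavl1 on the other strand. Ccl24 was highest in BURP-18BaSq, at 8.24, 0.515 and 9.35 CPM, and averaged 0.0690 CPM in BURP-12BaSq (adjusted p = 0.00391). The monocyte chemokine Ccl7 was likewise highest in BURP-18BaSq, at 86.8, 3.86 and 44.7 CPM, and averaged 1.03 CPM in BURP-12BaSq (adjusted p = 0.0109). C149-M3 was the low tumor of BURP-18BaSq for both ligands. The eosinophil chemokine Ccl11 averaged 13.3 ± 19.8 CPM in BURP-18BaSq, 12.9 ± 18.4 CPM in BURP-17BaSq and 0.164 ± 0.184 CPM in BURP-12BaSq (adjusted p = 0.0243), and its receptor Ccr3 had its highest line mean in BURP-18BaSq too, at 0.816 ± 1.15 CPM (adjusted p = 0.0178). Cxcl13 was highest in BURP-17BaSq at 3.82 ± 5.99 CPM (adjusted p = 0.0196), of which C152-M1 gave 10.7 CPM. Ccr4, on Th2 and regulatory T cells, was highest in BURP-21BaSq at 1.44 ± 1.78 CPM (adjusted p = 0.0340), P4 giving 3.49 CPM. Cxcl16 had line means from 30.8 ± 4.56 CPM in BURP-12BaSq to 91.2 ± 13.9 CPM in BURP-24BaSq (adjusted p = 0.00859). The other 2 called members were Ccr10 and Cxcl10. In all 18 fits that left out 1 tumor, Ccl24, Ccr10, Cxcl16, Ccl25 and Ccr3 stayed called.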

How the data were processed

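RNA of 24 BURP tumors, 3 from each of 8 lines, was depleted of ribosomal RNA, and stranded paired-end libraries were sequenced. Per the submitters' processing notes, CASAVA 1.8.2, STAR 2.6.0a and RSEM 1.3.1 were used. The authors aligned reads to GRCm38 with GENCODE M16 and deposited estimated counts per gene, which were not normalized. The table held 53465 genes, 12.5% of values were not whole (tolerance 1e-06), and all were rounded before use. Symbols and positions came from GENCODE M21 (99.8% of identifiers found). Totals ran from 9295708 to 25370320 counts.

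Line and sex of each tumor came from the labels, with replicates numbered in accession order. Each of 7 comparisons was fitted in R 4.3.3 with edgeR 4.0.16 (TMM, filterByExpr, glmQLFit and glmQLFTest, robust estimation off) on all genes of the groups compared, and was tested on simulated data. Called means a Benjamini-Hochberg adjusted p under 0.05 over all genes tested and an absolute log2 fold change above 1. Alternatives used DESeq2 1.42.0, limma 3.58.1, other filters and scalings, and left out single tumors, lines or libraries. Reads per kilobase were computed from the union of exons. The members and lists were chosen with earlier results of these data known. Values in each tumor are given for members called in BURP-19NE or BURP-16SR against the Ba/Sq lines, and RPKM for the 10 highest. In the other comparisons values are given for some of the called members, which were not chosen by size of change alone. Sequences came from RefSeq on GRCm38.p6. One member and one gene of the other lists are not reported here.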

Additional observations from a re-analysis of the deposited data

How the results depend on the processing

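No called result changed direction under the alternatives run. Shares in parentheses are those of all genes called in the same fit. In BURP-19NE, 11 of 40 members were called (24.3%), against 5 of 51 with no filter on low counts (14.6%), 4 of 10 with at least 10 counts in every tumor (18.5%) and 18 of 40 with DESeq2 (27.9%). In BURP-16SR, 12 of 43 were called (19.2%), against 3 of 8 with at least 10 counts (14.7%). In BURP-16SR against BURP-19NE, 13 of 30 were called (23.6%), against 8 of 17 with at least 10 counts (20.1%) and 20 of 43 with all 24 tumors in 1 fit (24.2%). In BURP-24BaSq against BURP-16SR, 9 of 31 were called (29.0%), against 14 of 31 with DESeq2 (31.0%). Between the sexes, 2 of 27 were called (2.31%), against 4 of 27 with DESeq2 (4.29%) and 0 both with counts summed per line and with limma-voom with line as a random effect (0% of all genes in both). Among the 6 Ba/Sq lines, 10 of 40 were called (39.4%), against 3 of 10 with at least 10 counts (39.9%) and 16 of 40 with DESeq2 (45.3%). Among the 8 lines, 30 of 43 were called (65.7%), against 6 of 8 with at least 10 counts (63.7%). The stricter filter tests fewer members, and the cause of the other changes was not tested.

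Leaving out 1 tumor or line at a time gave from 4 to 13 members in BURP-19NE, from 3 to 13 in BURP-16SR, from 5 to 27 in BURP-16SR against BURP-19NE, from 2 to 20 in BURP-24BaSq against BURP-16SR, from 0 to 4 between the sexes, from 7 to 14 among the 6 Ba/Sq lines and from 23 to 34 among the 8 lines. The share of all genes moved too: the 27 of 36 members without P5 of BURP-16SR stood beside 29.7%, the lowest counts of that comparison, 5, beside 15.5% to 18.2%, the 20 of 37 against BURP-24BaSq without P5 beside 33.8%, the lowest, 2 of 33, beside 21.7%, the 4 of 42 or 43 in BURP-19NE beside 16.8% and 16.2%, and the 3 of 44 in BURP-16SR beside 12.2%. Leaving out BURP-21BaSq or BURP-24BaSq gave 6 of 38 (23.7%) and 7 of 38 (23.1%) members in BURP-19NE, and leaving out BURP-21BaSq gave 0 of 30 (1.81%) between the sexes. Where 2 tumors stay in a group, the spread is pooled with that of the other group. No paired analysis was possible because label codes that recur across lines, such as P4, do not mark shared mice and the other replicate numbers only follow accession order.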
